A study of Rattus norvegicus with 6 samples.

Results

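Intercalated cells are the acid-base cells of the kidney's connecting tubule and collecting duct, and 10 genes that they use were followed here: Slc4a1, Slc26a4, Slc26a7, Foxi1, Aqp6, Car2, Atp6v1b1, Atp6v0a4, Atp6v1g3 and Rhcg. A member was any probe set whose only gene symbol in the array's annotation was one of these. This gave 12 probe sets for 9 genes, out of 31099 probe sets on the array and 14217 genes with a probe set of their own. Slc26a7, which encodes an anion exchanger of the basolateral membrane, had 0 such probe sets and is not described further. The arrays were hybridized with kidney RNA of 3 male Dahl salt-sensitive rats (Dahl S, a strain that becomes hypertensive on a high-salt diet) and 3 male Lewis rats. All 6 rats ate food with 8% NaCl for 8 weeks from the age of 5 weeks, and 1 array was used for each rat. Rats on other diets were not analysed here, so a difference between the strains cannot be divided into an inherited part and a response to salt. The labels name the tissue as kidney, with no region and no sorted cell type. In such whole-kidney RNA, fewer cells of a type and less RNA per cell cannot be told apart.

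Intercalated cells take up CO2, which reacts with water, with the help of carbonic anhydrase 2 (Car2), to give a proton and bicarbonate. Type A cells pump the proton into the urine with a vacuolar H+-ATPase (V-ATPase) and return bicarbonate to the blood through anion exchanger 1 (Slc4a1). Type B and related cells release bicarbonate into the urine, and take up chloride, through pendrin (Slc26a4). The V-ATPase is built from a membrane sector, V0, and a catalytic sector, V1, and several of its subunits have a form found in only a few tissues, such as Atp6v1b1, Atp6v1g3 and Atp6v0a4 in intercalated cells, beside a form found in most cells. Foxi1 is the forkhead transcription factor on which these cells depend, Rhcg carries ammonia, and Aqp6 encodes a water channel family protein of intracellular vesicles.

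The arrays differed in brightness before normalization, with 2% trimmed mean signals of 118 to 229 in Lewis and 204 to 249 in Dahl S, and in the deposited values the log2 signal of the median probe set tested was 0.41 higher in Dahl S. Values below are log2(signal + 16) after quantile normalization. Each difference is thus relative to probe sets of similar brightness, and a difference of a dim gene is understated. The shift of 0.41 is a median, and it was not the same for probe sets of every brightness. On arrays of this kind the brightness of a probe set also depends on its sequence, so no gene's level is set against another's. Ratios of the arrays' 3' to 5' control probe sets, a sign of RNA length, differed between strains by -0.03 for GAPDH and -0.04 for beta-actin on the log2 scale (exact permutation p = 0.8 for each, two-sided, n = 3 per strain). The strains were compared with limma, adjusting over all 15797 probe sets that passed a filter on low values.

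One gene of the group rose in Dahl S kidneys, and no difference was detected in the others. Atp6v1g3, which encodes the G subunit form of the V-ATPase stalk found in intercalated cells, was 1.34-fold higher in Dahl S by its brighter probe set and 1.33-fold higher by its other probe set. Anion exchanger 1, pendrin, Foxi1, carbonic anhydrase 2, the V-ATPase subunits Atp6v1b1 and Atp6v0a4 and the ammonia channel Rhcg differed by between -0.16 and 0.15 on the log2 scale, and none of them passed the threshold of 0.05 on the adjusted p. Of the 9 genes with a probe set, 8 passed the filter and were tested. Of these 8 genes, each represented by its brightest probe set, 1 was called higher and 0 lower (limma; also 1 and 0 at an unadjusted p under 0.05). Over all 9540 genes tested, 9.04% were called higher, 7.62% lower and 16.7% in either direction, so the share called among these genes, 12.5%, was near that of all genes. By probe sets, 2 of the 11 tested were higher and 0 lower, against 8.5% higher, 7.75% lower and 16.2% in either direction of all probe sets tested. Differences were positive in 5 of the 8 genes and in 51% of all genes. The median difference was 0.02 over the 8 genes and 0.00 over all genes. Strain ranges did not overlap in 1 of the 8 genes (12.5%), against 35.1% of all genes tested.

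**Figure D1:**
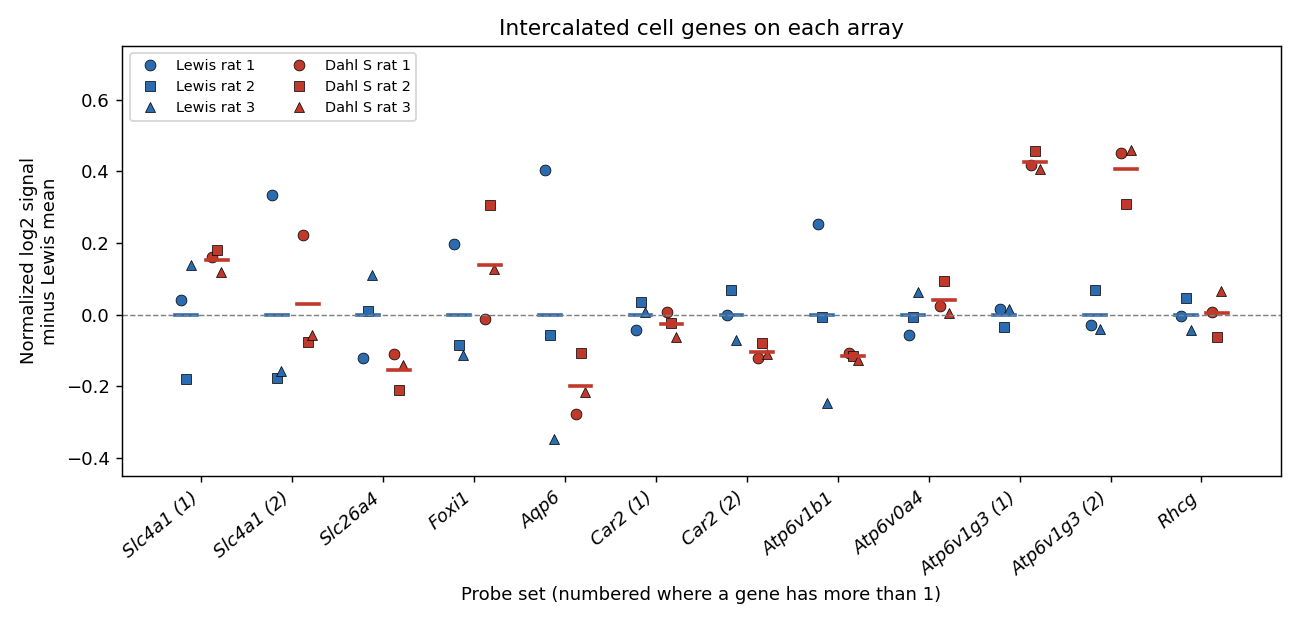
Normalized log2 signal of each probe set of the group on each array, minus the mean of the 3 Lewis arrays of that probe set; colours are strains, symbols are rats and bars are strain means. Both probe sets of Atp6v1g3 lie above every Lewis array on all 3 Dahl S arrays, while in the other probe sets, apart from the second of Car2, the strains overlap.

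Atp6v1g3 had the clearest difference. Its brighter probe set read 10.66, 10.61 and 10.66 in Lewis rats 1, 2 and 3 and 11.06, 11.10 and 11.05 in Dahl S rats 1, 2 and 3. The rats of each strain were thus close together and the strains apart, by 0.43 (SE 0.06, 95% interval 0.30 to 0.56, limma adjusted p = 4.0e-04). The other probe set read 8.53, 8.63 and 8.52 in Lewis and 9.01, 8.87 and 9.02 in Dahl S. Every Dahl S rat was again above every Lewis rat, with Dahl S rat 2 the lowest of its strain, and the difference was 0.41 (SE 0.09, 95% interval 0.22 to 0.60, limma adjusted p = 0.0064). Without Dahl S rat 3 this second probe set narrowly lost its call (0.38, adjusted p = 0.051), while the first differed by 0.40 to 0.44 and kept its call with any 1 rat left out. In the deposited values without normalization the difference was 0.80 and 0.85, above the shift of 0.41 of the typical probe set, but the spread between arrays was also larger and neither passed (adjusted p = 0.157 and 0.135). The deposited signals of the first probe set were 984 to 1851 in Lewis and 2206.5 to 2666 in Dahl S, ranges that do not overlap.

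To show what lies before the start of the gene that rose, and of its partners in the pump that did not pass the threshold, the 250 bases upstream of the annotated start are given for the 3 V-ATPase genes of the group, from RefSeq on the GRCr8 assembly, 5' to 3' on the strand of the gene. Capitals mark the letters TGTTTA or TGTTTG on either strand, which form the core that forkhead factors such as Foxi1 are known to recognise. The 3 sequences follow, each on a line of its own.
Atp6v1g3, chr13:52362082-52362331, plus strand: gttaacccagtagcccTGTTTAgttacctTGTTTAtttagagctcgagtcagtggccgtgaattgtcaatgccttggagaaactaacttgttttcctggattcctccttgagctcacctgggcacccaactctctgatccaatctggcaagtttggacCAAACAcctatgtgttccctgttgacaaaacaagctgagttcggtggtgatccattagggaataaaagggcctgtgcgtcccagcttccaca
Atp6v1b1, chr4:117781194-117781443, plus strand: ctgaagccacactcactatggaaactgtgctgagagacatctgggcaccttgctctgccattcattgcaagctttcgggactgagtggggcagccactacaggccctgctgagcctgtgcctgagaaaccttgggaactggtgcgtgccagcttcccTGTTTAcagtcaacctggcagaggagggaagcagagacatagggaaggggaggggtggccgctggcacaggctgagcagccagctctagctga
Atp6v0a4, chr4:67809093-67809342, minus strand: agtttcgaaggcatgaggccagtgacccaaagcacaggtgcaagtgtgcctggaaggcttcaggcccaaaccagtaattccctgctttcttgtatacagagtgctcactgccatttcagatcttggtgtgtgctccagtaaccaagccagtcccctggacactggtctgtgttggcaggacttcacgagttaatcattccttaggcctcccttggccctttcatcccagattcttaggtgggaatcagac
Atp6v1g3 held 3 matches, which begin 234, 221 and 92 bases before the start. Atp6v1b1 held 1 match, which begins 93 bases before the start, and Atp6v0a4 held 0. Of the 33469 upstream sequences that RefSeq provides here, 25.2% held at least 1 match and 1.12% held 3 or more. Of the 7 genes of the group with an upstream sequence in the table, 2 held a match; Slc26a4, Foxi1, Aqp6 and Rhcg held 0, as did Atp6v0a4. Such a match describes the letters only, and binding was not measured.

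The other tissue-restricted V-ATPase subunits did not move with Atp6v1g3. Atp6v0a4, the a subunit of the membrane sector that is mutated in inherited distal renal tubular acidosis, read 11.26, 11.31 and 11.38 in Lewis and 11.34, 11.41 and 11.32 in Dahl S. These values interleave, and the difference was 0.04 (95% interval -0.09 to 0.17, limma adjusted p = 0.71), or -0.06 when arrays were scaled to a common median instead. Atp6v1b1, the B subunit of the catalytic sector and another gene of that disease, read 8.87, 8.61 and 8.37 in Lewis and 8.51, 8.50 and 8.49 in Dahl S. The 3 Dahl S rats were almost equal and lay inside the wider Lewis range, and the difference was -0.12 (95% interval -0.37 to 0.14, limma adjusted p = 0.54). It was 0.01 without Lewis rat 1 and 0.33 in the deposited values, where the typical probe set was 0.41 higher.

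Across the rest of the V-ATPase the strains were likewise close. Of 22 further subunit and accessory genes 20 had a probe set and 19 were tested. Of these, 1 was higher in Dahl S, 0 were lower and 18 did not pass (limma; 1 higher and 1 lower at an unadjusted p under 0.05), with a median difference of 0.01. The share called was 5.26%, against 16.7% of all genes tested. In 18 of the 19 the 95% interval lay within 0.5 of 0 on either side, a count not made for all genes. The exception was Atp6v0a1, the widely expressed a subunit, at -0.37 (95% interval -0.73 to -0.02, limma adjusted p = 0.145). It read 7.58, 7.42 and 6.88 in Lewis and 6.95, 6.99 and 6.80 in Dahl S, so that Lewis rat 3 lay within the Dahl S range, and without Lewis rat 3 it was called lower (-0.58, adjusted p = 0.010). The subunit gene Atp6v1c1 was the one that rose: the common C subunit of the V1 sector differed by 0.26 (SE 0.07, limma adjusted p = 0.028; 10.04, 10.04 and 10.19 in Lewis, 10.42, 10.30 and 10.34 in Dahl S). Its call was lost without Lewis rat 2 (0.24, adjusted p = 0.0811) and without Dahl S rat 1 (0.23, adjusted p = 0.136), rat 2 (0.29, adjusted p = 0.0643) or rat 3 (0.27, adjusted p = 0.11), and when arrays were scaled to a common median (0.23, adjusted p = 0.147). Atp6v0c, which encodes the proton-carrying ring of the membrane sector, differed by -0.11 (SE 0.06, limma adjusted p = 0.31), and by 0.18 in the deposited values.

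**Figure D2:**
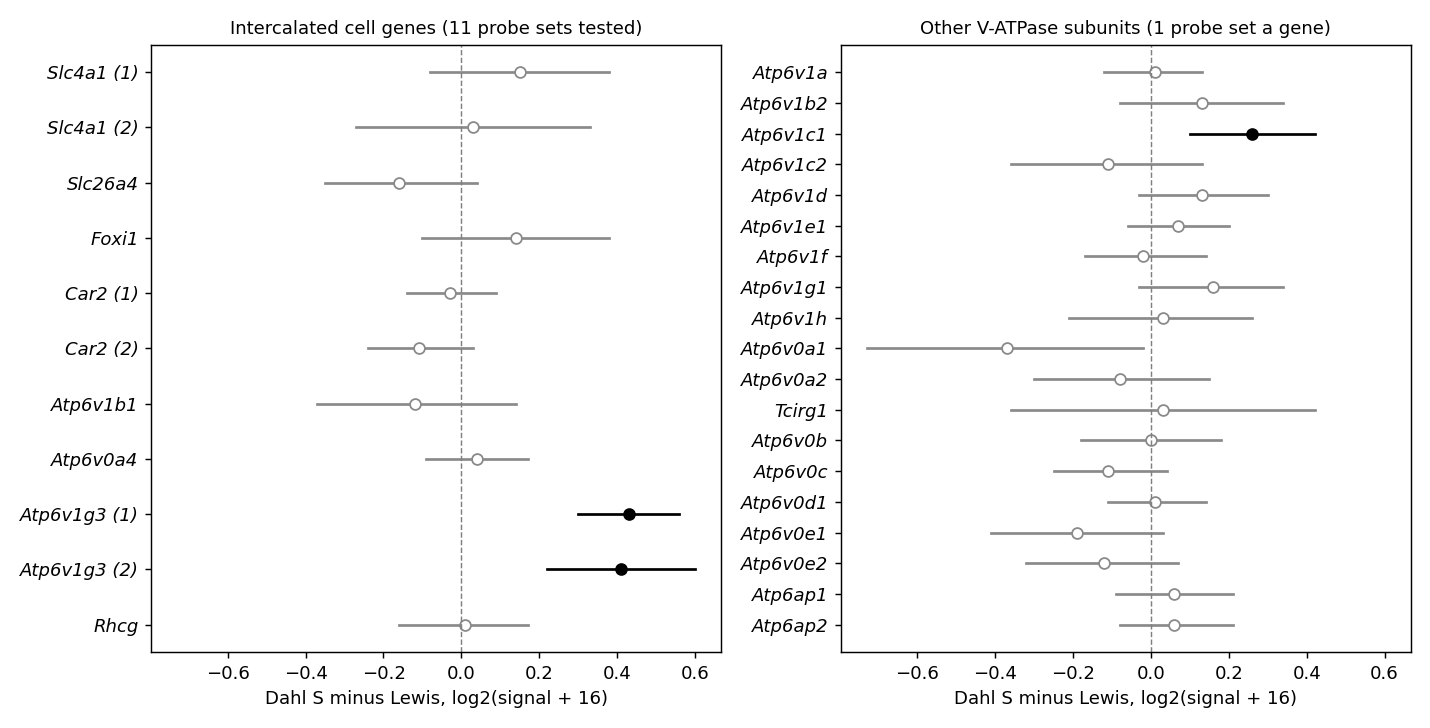
Difference between Dahl S and Lewis on the log2(signal + 16) scale with its 95% interval from limma, for the 11 tested probe sets of the group (left) and for 19 other V-ATPase genes, 1 probe set each (right); filled points passed an adjusted p of 0.05. Both probe sets of Atp6v1g3 and Atp6v1c1 are filled, and the interval of Atp6v0a1 reaches furthest to the left, to -0.73.

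Within each array the tissue-restricted form of a subunit was also set against the widely expressed form, which asks whether both forms changed alike. The difference between Atp6v1g3 and Atp6v1g1, the common G subunit, was 1.01, 1.10 and 1.07 in Lewis and 1.19, 1.36 and 1.44 in Dahl S. It was therefore larger in every Dahl S rat than in any Lewis rat, by 0.27 on average. Atp6v1g1 itself differed by 0.16 (95% interval -0.03 to 0.34, limma adjusted p = 0.24). The difference between Atp6v1c2 and Atp6v1c1 went the other way and was lower by 0.38 in Dahl S (-1.55, -1.92 and -2.05 in Lewis; -2.34, -2.21 and -2.10 in Dahl S), again without overlap. Atp6v1c2, the C subunit form of kidney and lung, differed by -0.11 itself (limma adjusted p = 0.55). Atp6v1c1, at 0.26, kept its limma call under only 7 of 15 alternatives. Such contrasts combine the differences of the single genes, so the lack of overlap is no separate evidence that a gene changed. The pair of Atp6v1b1 and Atp6v1b2 differed between strains by -0.25 and that of Atp6v0a4 and Atp6v0a1 by 0.41, and in both pairs the strains overlapped. A further planned pair, Atp6v0d2 and Atp6v0d1, could not be formed because Atp6v0d2 had no probe set of its own. Exact two-sided permutation tests gave p = 0.1 for the G and C pairs, which is the smallest that 3 against 3 rats allow, and 0.2 and 0.3 for the B and a pairs. After Benjamini-Hochberg adjustment over the 7 within-array comparisons made, these were 0.233 for the G and C pairs and 0.35 for the B and a pairs.

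Anion exchanger 1 and pendrin mark the 2 opposite kinds of intercalated cell, and neither differed between strains beyond the spread between rats. Slc26a4 read 8.76, 8.89 and 8.99 in Lewis and 8.77, 8.67 and 8.74 in Dahl S. Lewis rat 1 overlapped the Dahl S rats, and the difference was -0.16 (95% interval -0.35 to 0.04, limma adjusted p = 0.27); in the deposited values, with their shift of 0.41, it was 0.28. The dimmer of the Slc4a1 probe sets read 7.73, 7.51 and 7.83 in Lewis and 7.85, 7.87 and 7.81 in Dahl S. Dahl S rat 3 fell just below Lewis rat 3, and the difference was 0.15 (95% interval -0.08 to 0.38, limma adjusted p = 0.37). The brighter probe set, which stood for the gene in the counts, read 8.85, 8.34 and 8.36 in Lewis and 8.74, 8.44 and 8.46 in Dahl S, with rat 1 the highest of each strain. Its difference was 0.03 (95% interval -0.27 to 0.33, limma adjusted p = 0.92) and turned to -0.06 without Lewis rat 2, -0.05 without Lewis rat 3 and -0.07 without Dahl S rat 1. The within-array difference between Slc26a4 and Slc4a1 was -0.10, 0.55 and 0.63 in Lewis and 0.03, 0.23 and 0.28 in Dahl S, a change of -0.18 with overlapping strains (exact permutation p = 0.5, two-sided, adjusted 0.5).

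The regulator, the enzyme, the ammonia channel and the aquaporin gave no call either. Foxi1 read 8.85, 8.57 and 8.54 in Lewis and 8.64, 8.96 and 8.78 in Dahl S. Lewis rat 1 stood among the Dahl S rats, and the difference was 0.14 (95% interval -0.10 to 0.38, limma adjusted p = 0.43). Rhcg read 9.46, 9.51 and 9.42 in Lewis and 9.47, 9.40 and 9.53 in Dahl S. Its strain means were within 0.01 of each other (95% interval -0.16 to 0.17, limma adjusted p = 0.96). Car2, which is made in proximal tubule as well as in intercalated cells, read 11.77, 11.85 and 11.82 in Lewis and 11.82, 11.79 and 11.75 in Dahl S by its brighter probe set, a difference of -0.03 (95% interval -0.14 to 0.09, limma adjusted p = 0.79). Its other probe set read 11.25, 11.32 and 11.18 in Lewis and 11.13, 11.17 and 11.14 in Dahl S. There every Dahl S rat was below every Lewis rat, yet the difference of -0.11 (95% interval -0.24 to 0.03) did not pass (limma adjusted p = 0.27). Both probe sets gave 0.24 in the deposited values, where the typical probe set was 0.41 higher, and -0.20 when arrays were scaled to a common median. Aqp6 read 5.12 to 5.87 in Lewis and 5.19 to 5.36 in Dahl S, below the median of all values, 6.28, on all 6 arrays, and was not tested. Its deposited signals were between 17.1 and 33.2, so that the strains could not be compared for this gene at the signal it gave.

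RNA of Slc4a1 and Car2 is also made in red cell precursors, and some red cell genes were higher in Dahl S. Of 25 listed erythrocyte genes 17 had a probe set and 6 were tested, of which 3 rose, 0 fell and 3 did not pass (limma; 4 and 0 at an unadjusted p under 0.05). Among the 6 tested 50% were thus called higher, against 9.04% of all genes tested. The median was 0.35 over these 6, 0.10 when genes below the filter were kept and 0.70 in the deposited values. The alpha globin gene Hba-a3 rose by 0.57 (SE 0.13), the beta globin gene Hbb by 0.34 (SE 0.09) and Alas2, which encodes the first enzyme of haem synthesis in red cell precursors, by 0.56 (SE 0.14; limma adjusted p = 0.012, 0.022 and 0.015). Without Dahl S rat 2 the number higher was 0 (adjusted p of 0.0659 for Hba-a3, 0.0713 for Hbb and 0.08 for Alas2), and without Dahl S rat 3 it was 2, Hbb being lost (0.31, adjusted p = 0.0887). The gene Hbb kept its call under 9 of 15 alternatives; it lost it also when arrays were scaled to a common median (0.19, adjusted p = 0.283), with no filter (adjusted p = 0.0931), with no variance trend (adjusted p = 0.0893) and in the deposited values (0.63, adjusted p = 0.216). The gene Alas2 lost its call with no filter (adjusted p = 0.0507) and the gene Hba-a3 in the deposited values (1.01, adjusted p = 0.0605). The summed normalized signal of the 6 genes was 4633 to 5746 in Lewis and 6392 to 6929 in Dahl S. This sum is of linear signals, so that the brightest gene, Hbb, weighs most in it. The other 11 genes with a probe set were below the filter, and their 18 probe sets read between 4.04 and 5.85 over all arrays, where a signal of 0 would read 4. Set against the mean of the 6 erythrocyte genes on the same array, Slc4a1 was lower in Dahl S by 0.28 (exact permutation p = 0.3, adjusted 0.35) and Car2 by 0.34 (p = 0.1, the smallest possible, adjusted 0.233; two-sided, n = 3 per strain). With the genes below the filter in that mean, these were -0.13 and -0.18. That of Slc4a1 was -0.11 without Lewis rat 1, and that of Car2 was -0.50 when arrays were scaled to a common median. Slc4a1 and Car2 themselves differed by 0.03 and -0.03, and the mean of the 6 erythrocyte genes by 0.31. These contrasts thus mostly restate the rise of that mean and give no red cell share. The part of red cell RNA in the values of Slc4a1 and Car2 was not tested.

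**Figure D3:**
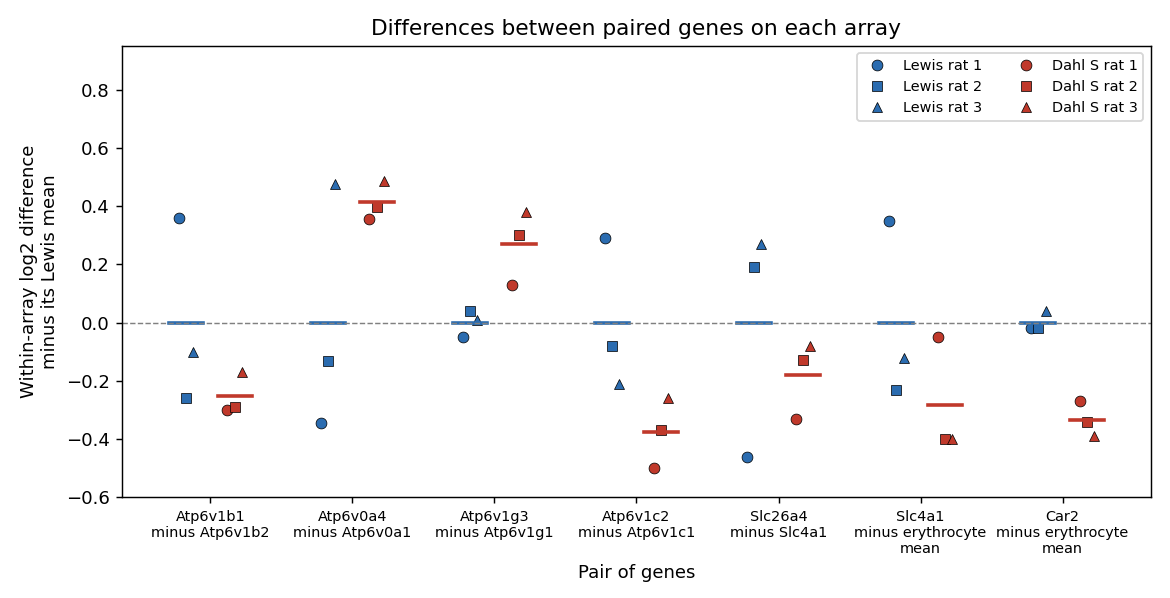
Within-array differences on the log2 scale between the 2 genes of a pair, or between a gene and the mean of 6 erythrocyte genes, each minus the mean of the 3 Lewis arrays; colours are strains, symbols are rats and bars are strain means. The strains do not overlap for Atp6v1g3 minus Atp6v1g1, Atp6v1c2 minus Atp6v1c1 and Car2 minus the erythrocyte mean.

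Further genes known from intercalated cells gave a mixed picture. Of 31 such genes 22 had a probe set and 11 were tested, of which 3 rose, 0 fell and 8 did not pass (limma; 4 and 0 at an unadjusted p under 0.05), with a median of 0.16 (-0.10 when genes below the filter were kept). The share called higher was 27.3%, against 9.04% of all genes tested. The Notch ligand gene Jag1 rose by 0.79 (SE 0.10, limma adjusted p = 2.1e-04), P2ry14, the receptor for UDP-glucose, by 0.63 (SE 0.11, adjusted p = 0.0022) and Lgals3, galectin-3, by 0.53 (SE 0.09, adjusted p = 0.0023). In the deposited values the gene Lgals3 did not pass (0.95, adjusted p = 0.0905), which left 2 genes higher. In each of the 3 every Dahl S rat was above every Lewis rat, which follows largely from naming the genes that were called. None of these 3 is specific to intercalated cells: Lgals3 is also a gene of macrophages and Jag1 of endothelium. Dmrt2 passed only at an unadjusted p under 0.05, at 0.44 (95% interval 0.12 to 0.75, limma adjusted p = 0.059). Its other probe set gave 0.20 (limma adjusted p = 0.34), and on both every Dahl S rat was above every Lewis rat. Differences were positive in 7 of the 11 genes. Tfcp2l1, a transcription factor gene of the collecting duct, differed by 0.16 (SE 0.13, adjusted p = 0.46), with values of 10.24 to 10.78 in Lewis and 10.44 to 10.82 in Dahl S. Beside these rises, 8 of 11 tested macrophage and leukocyte genes and 8 of 11 tested tubular injury genes were higher and 0 lower, with summed normalized signals of 4677 to 4844 in Lewis against 5987 to 6177 in Dahl S for the leukocyte list, and 7802 to 8603 against 15180 to 15340 for the injury list. These sums are of linear signals and are weighted to the brightest genes of each list. By mean log2 value the leukocyte list was higher in Dahl S by 0.48 and the injury list by 0.95. By adjusted p 72.7% of each of these lists were called higher, against 9.04% of all genes tested. At an unadjusted p under 0.05, 9 leukocyte genes were higher and 0 lower, and 9 injury genes were higher and 1 lower. The number of leukocyte genes higher was 5 without Dahl S rat 1 and 3 in the deposited values. The part of such cells in the rises of Jag1, P2ry14 and Lgals3, and in that of Atp6v1g3, was not tested.

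Genes of the neighbouring principal cells, the sodium and water cells of the same ducts, were lower in Dahl S in several cases. Of 14 tested, 0 rose, 6 fell and 8 did not pass (limma; 0 and 9 at an unadjusted p under 0.05), with a median of -0.24, while the 8 intercalated cell genes had a median of 0.02. Called lower were thus 42.9% of the principal cell genes, against 7.62% of all genes tested. The basolateral water channel gene Aqp4 fell by 0.83 on the log2 scale (SE 0.08, limma adjusted p = 2.5e-05), and every Dahl S rat was below every Lewis rat. Aqp4 was named for its small adjusted p, so that separation adds little to it. The transcription factor gene Gata2 fell by 0.57 (SE 0.12, adjusted p = 0.0057) and Fxyd4, which encodes a regulator of the sodium pump, by 0.43 (SE 0.08, adjusted p = 0.0022). The water channel gene Aqp3 fell by 0.29 (SE 0.07, adjusted p = 0.017). The gene Aqp2, for the vasopressin-regulated water channel of the apical membrane, differed by -0.16 (SE 0.07, adjusted p = 0.139), and was called lower when arrays were scaled to a common median (-0.30, adjusted p = 0.045) and without Lewis rat 1 (-0.22, adjusted p = 0.016). The number that fell was 3 without Dahl S rat 1, where Aqp3 also lost its call (-0.25, adjusted p = 0.1002), as it did without Dahl S rat 3 (-0.31, adjusted p = 0.0636). In the deposited values 0 fell and the median was 0.12, against 0.41 for the intercalated cell genes. Both medians were higher there, so that their unchanged order is no separate evidence of a difference. The difference between the lists was not tested.

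Several acid-base and ammonia genes of the proximal tubule and other segments were lower too. Of 15 tested, 0 rose, 8 fell and 7 did not pass (limma; 0 and 9 at an unadjusted p under 0.05), with a median of -0.29 and all 15 differences below 0. The share called lower was 53.3%, against 7.62% of all genes tested. Slc9a3, whose product exchanges sodium for protons at the apical membrane, was lower, with a log2 difference of -0.68 (SE 0.09, limma adjusted p = 1.9e-04). Slc38a3, which brings glutamine into the cell for ammonia production, differed by -0.67 (SE 0.10, adjusted p = 6.8e-04). Pck1, the phosphoenolpyruvate carboxykinase gene that acidosis is known to raise, fell by 0.49 (SE 0.05, adjusted p = 2.5e-05; 12.97, 12.87 and 12.90 in Lewis, 12.44, 12.39 and 12.44 in Dahl S), and the mitochondrial dicarboxylate carrier gene Slc25a10 by 0.49 (SE 0.07, adjusted p = 5.7e-04). In each of these 4 genes every Dahl S rat lay below every Lewis rat. That follows largely from naming the genes with the smallest adjusted p, and strain ranges did not overlap in 35.1% of all genes tested. In the deposited values their differences were -0.29 for Pck1, -0.26 for Slc9a3, -0.23 for Slc38a3 and -0.11 for Slc25a10, 0 of 15 genes were called and the median was 0.00 beside the shift of 0.41. When arrays were scaled to a common median, Pck1 differed by -0.72, 9 of the 15 genes were lower and the median was -0.44. Of 14 tested marker genes of the proximal tubule 4 were lower and 0 higher (limma; 6 and 0 at an unadjusted p under 0.05), with a median of -0.11. That is 28.6% called lower, against 7.62% of all genes tested. The number lower was 10, with a median of -0.35, when arrays were scaled to a common median, and 0, with a median of 0.09, in the deposited values. It was 1 without Lewis rat 2, Dahl S rat 2 or Dahl S rat 3, and also with no filter and with no variance trend. The counts use the brightest probe set of a gene. Slc34a1 was called lower by another (-0.62, limma adjusted p = 0.0022) and not by its brightest (-0.06). Hnf4a was called lower by its other probe sets (-0.55 and -0.50, adjusted p = 8.0e-04 and 0.0034) and not by its brightest (-0.12). Slc13a1 was called higher by another (0.33, adjusted p = 0.0098) and not by its brightest (-0.01). The part of proximal tubule RNA as a whole in the fall of the acid-base and ammonia genes was not tested.

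**Figure D4:**
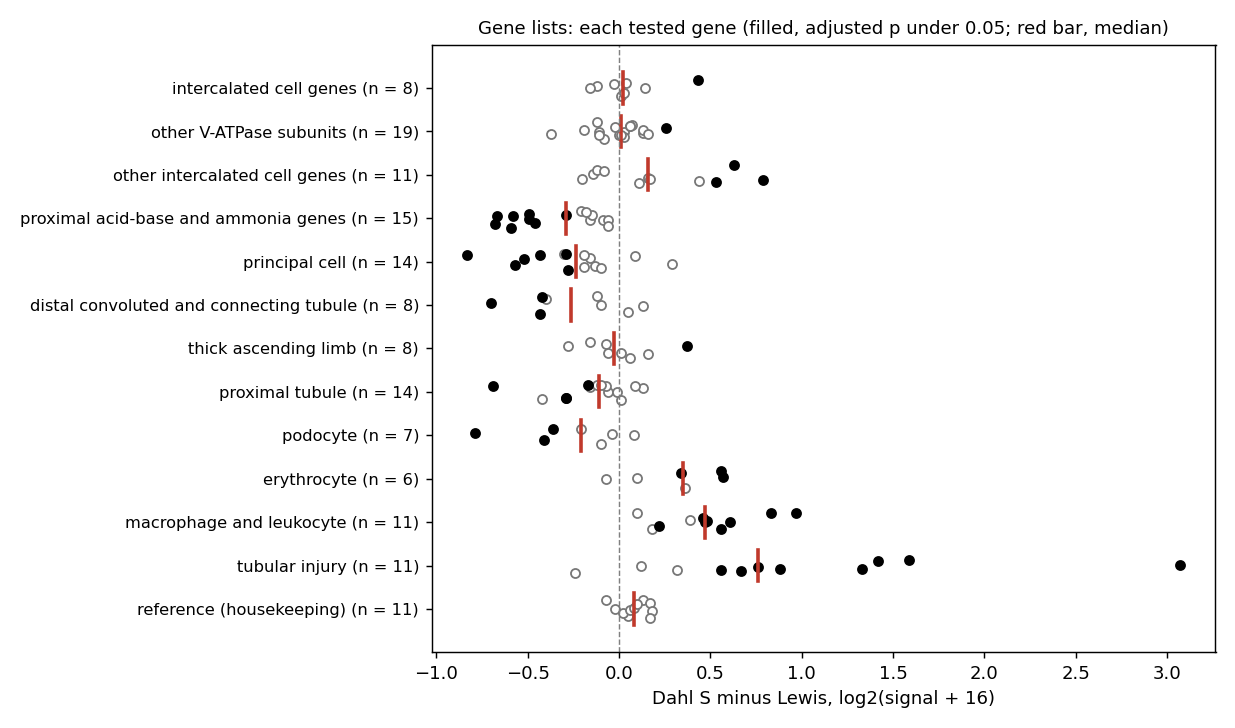
Difference between Dahl S and Lewis on the log2(signal + 16) scale after quantile normalization for each tested gene of 13 lists; filled points passed an adjusted p of 0.05, red bars are list medians, and vertical scatter has no meaning. The intercalated cell genes and the other V-ATPase subunits centre near 0 with medians of 0.02 and 0.01, the principal cell and the proximal acid-base lists lie lower at -0.24 and -0.29 (0.12 and 0.00 in the deposited values, whose shift is 0.41), and the reference genes have a median of 0.08.

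As a description of pattern, the genes most like each of the 8 tested genes over the 6 arrays were found by the root mean square difference between profiles, each taken as log2 values minus the gene's own mean. For Atp6v1g3 these were Rab8b (0.01), which encodes a small GTPase of vesicle traffic, and Thoc2 (0.03), a gene of RNA export, and they differed between strains by 0.45 and 0.42. Slc26a4 was closest to Ncald and Paxx (0.02 each), and Slc4a1 to Ccdc141 and Aplnr (0.05 each). Foxi1 was closest to Mphosph8 (0.03) and Cd74 (0.04), Car2 to Cd81 (0.01) and Grcc10 (0.02), and Rhcg to Uqcrh and Mfn2 (0.02 each). Atp6v1b1 was closest to Inpp5e and Zfp787 (0.03 each), and Atp6v0a4 to Tmem131 (0.01) and Fcf1 (0.02). Except for those of Atp6v1g3, these neighbours differed between strains by no more than 0.17 in size. Their likeness to the members in this follows from how they were chosen.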

How the data were processed

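RNA from the kidneys of 6 rats, 3 of each strain, was hybridized to 1 array per rat. The deposited values are linear signal intensities per probe set, computed by the authors with GeneChip Operating Software 1.4 per the labels' design text; for the scaling target, the background settings and the calls of detection, the value is not given in the sources used. Array controls (57) were left out. Quantile normalization of log2(signal + 16), the pseudocount being the rounded lower quartile, was followed by a filter (3 or more of 6 arrays above the overall median) and limma 3.58.1 in R 4.3.3 (variance trend, two-sided, Benjamini-Hochberg over 15797 probe sets, threshold 0.05). SE and 95% intervals are limma's. Since detection calls were not used, the filter stands in for signal above background, and the number of arrays limits the precision. Of 20826 probe sets with 1 symbol, 20758 matched RefSeq by gene ID; 436 with several symbols named no gene. In counts a gene was represented by its brightest tested probe set.

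The genes named are all members, the isoform pairs, the 2 profiles most like each member, and of each list described by gene up to 4 called genes with the smallest adjusted p and the brightest gene. Dmrt2 was named in addition, having passed only at an unadjusted p. Lists of injury, leukocyte, proximal tubule and reference genes are given by counts, apart from proximal tubule genes whose probe sets differed in their calls. Slc4a1 and Car2 were also set against erythrocyte genes. Members and lists were chosen with earlier results of these data known. Same-numbered rats were not paired: their deviations from strain means correlated at -0.05, -0.10 and 0.11. The labels name separate rats. The steps were run on simulated data with added strain differences of several sizes. That run required recovery only of the largest, which were far larger than that of Atp6v1g3. Recovery of the smaller ones is not reported here, so no conclusion on small differences is drawn from the run. Normalization, pseudocount, filter, variance trend, probe set rule, replicate block and leaving out each rat were varied.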

Additional observations from a re-analysis of the deposited data

How the results depend on the processing

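Of the 12 probe sets of the group, Atp6v1g3 was the only gene called under any of the 15 alternatives. Its first probe set passed under 14 and its second under 13 of them, and both were positive under all (0.36 to 0.80 and 0.37 to 0.85; adjusted p 2.0e-04 to 0.157 and 0.0063 to 0.135). The number of member genes higher was 1 under every alternative but the deposited values (0), and the number lower was 0 throughout. Without normalization the count of probe sets higher was 666 against 1343 and the count of probe sets lower 47 against 1224. Atp6v1g3 then gave 0.80 and 0.85 without passing. Slc26a4 (0.28), both probe sets of Car2 (0.24 each), Atp6v1b1 (0.33), Atp6v0a1 (0.03), Atp6v1c2 (0.32), Atp6v0c (0.18), Aqp3 (0.10) and Aqp2 (0.13) turned positive. That setting keeps the median shift of 0.41 between strains. Under it the other V-ATPase list had 0 genes higher, the erythrocyte list 1, and the proximal acid-base and principal cell lists 0 lower. Scaling to a common median turned Atp6v0a4 to -0.06, and under it, without a filter and without the variance trend the V-ATPase list had 0 higher; without the variance trend the principal cell list had 3 lower. The cause of these moves was not tested. With 1 rat left out, the count of probe sets higher ranged from 658 to 1439 and the count of probe sets lower from 715 to 1239, with at most 720 and 787 when any Dahl S rat was left out, the second Atp6v1g3 probe set from 0.38 to 0.46, V-ATPase genes higher from 0 to 1 and lower from 0 to 1, principal cell genes lower from 3 to 7 and higher from 0 to 1, and erythrocyte genes higher from 0 to 4. Left-out rats also turned the sign of Slc4a1's second probe set (range -0.07 to 0.20; -0.06 without Lewis rat 2, -0.05 without Lewis rat 3), Rhcg (-0.03 to 0.04; -0.01 without Lewis rat 3), Atp6v1b1 (-0.24 to 0.01) and Atp6v1c2 (-0.18 to 0.01), none of them called. The replicate block changed no call of a member (first Atp6v1g3 probe set 0.43, adjusted p = 0.0010, second 0.41, adjusted p = 0.013; 1 member gene higher), and the numbers do not pair the rats. The filter leaves Aqp6 without a test.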

Other observations

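Other segments of the distal nephron gave values of both signs beside the intercalated cell genes. Of 8 tested genes of the distal convoluted and connecting tubule 3 were lower in Dahl S and 0 higher (limma; 4 and 0 at an unadjusted p under 0.05), with a median of -0.26; in the deposited values 0 were lower and the median was 0.08, and it was -0.11 when genes below the filter were kept. The aldosterone-induced kinase gene Sgk1 fell by 0.70 in log2 signal (SE 0.06, limma adjusted p = 1.1e-05), the tissue kallikrein gene Klk1 by 0.42 (SE 0.06, adjusted p = 5.6e-04) and Cnnm2, a magnesium handling gene, by 0.43 (SE 0.09, adjusted p = 0.0070). Calb1, the calcium-binding protein calbindin, differed by -0.12 (SE 0.05, adjusted p = 0.143). Of 8 thick ascending limb genes 1 was higher and 0 lower (limma; 1 and 2 at an unadjusted p under 0.05), with a median of -0.02, and the gene that rose was Cldn16, a paracellular cation pore gene (0.37, SE 0.11, adjusted p = 0.035). With any 1 rat but Lewis rat 3 left out, with no filter and in the deposited values, 0 were higher, and 2 were lower when arrays were scaled to a common median. Umod, uromodulin, differed by 0.01 (SE 0.04, adjusted p = 0.89). Of 7 podocyte genes 3 were lower and 0 higher (limma; 3 and 0 at an unadjusted p under 0.05), with a median of -0.21. These were Podxl, podocalyxin (-0.79, SE 0.08, adjusted p = 2.1e-05), the phosphatase gene Ptpro (-0.41, SE 0.10, adjusted p = 0.014) and the transcription factor gene Wt1 (-0.36, SE 0.10, adjusted p = 0.033), while Synpo, synaptopodin, differed by -0.04 (SE 0.08, adjusted p = 0.76) by its brightest probe set and by -0.87 (adjusted p = 0.0028) by another. Without Lewis rat 2 or Dahl S rat 2, 1 was lower, and in the deposited values 0 were, with a median of 0.16. Of 11 reference genes 0 were called by limma (2 higher and 0 lower at an unadjusted p under 0.05). The share called was 37.5% for the distal convoluted and connecting tubule, 12.5% for the thick ascending limb and 42.9% for podocyte genes. Over all genes tested it was 16.7% in either direction, so the share for the thick ascending limb was near that of all genes.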
